A study of Mus musculus with 15 samples.

Results

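Some stretches of the mouse genome lay in H2A.X-decreased domains after embryonic stem cells were moved back to serum but in no list from 2i/LIF. These stretches are described here, and other serum lists of the series, which were not used to choose them, cover part of them. A bin of 1300 bp was taken as newly decreased when a domain covered it in each of the 2 lists made after the move while the 3 lists from 2i/LIF had no domain there. Adjacent bins were joined to regions. This gave 1623 regions made of 82143 bins, 106.8 Mb in all, out of 1855546 bins (2412 Mb) that span the 19 autosomes. All 10 lists of the series merge into 1683 stretches. The regions were chosen by the covered bins of those 5 lists themselves, so their number, length and position are given as a description with no test.

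H2A.X is a variant of histone H2A that replaces the canonical histone in a fraction of nucleosomes. Its tail is phosphorylated around DNA double-strand breaks, which makes it a known marker of DNA damage, and unphosphorylated H2A.X also occupies undamaged chromatin. Mek and Gsk3 inhibitors together hold mouse embryonic stem cells in a naive, largely undifferentiated state, whereas cells in serum and LIF are more heterogeneous.

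The study compared H2A.X deposition by native ChIP-seq, which precipitates nucleosomes from nuclease-digested chromatin without crosslinking, in male and female lines from 129S6 X C57B6 blastocysts. The cells labelled 2i/LIF then Serum/LIF (lines 34 and 37) were set against cells labelled 2i/LIF (lines 34, 35 and 37), which grew in a serum-free medium that held LIF, 1 µM PD0325901 to inhibit Mek, and 3 µM CHIR99021 to inhibit Gsk3. Serum/LIF cells came in samples titled XS (lines 30, 31 and 32) and S (lines 35 and 37), and the meaning of these letters is not given. Irradiated feeders are named for serum culture and not for 2i/LIF, so medium and feeders cannot be told apart. The time spent in each medium and the sex of each line are not among the labels used here, and the lists hold no marker against which the cell type could be checked. A list from a bulk culture cannot tell a small decrease in every cell from a large decrease in some cells.

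By their names the lists give domains of decreased H2A.X signal relative to a control, although a further column names 1 of the compared samples as enriched. The direction is taken from the names. The sources used here do not give the control, the domain caller or the read depth, so the precision behind a single domain end is unknown. The lists after the move held 1868 domains over 1023 Mb in line 34 and 2937 over 1001.3 Mb in line 37. Those from 2i/LIF held 2600 over 834 Mb in line 34, 3184 over 1886 Mb in line 35 and 3147 over 1080 Mb in line 37. The list of line 35 alone covered 78.2% of the span, and all 3 2i/LIF lists together left 484 Mb uncovered. The width of the 2i/LIF list of line 35 limits where a newly decreased bin could be found at all. No sample of the series comes from line 35 after the move.

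Newly decreased bins made up 4.43% of the span and 22.1% of the bins that no 2i/LIF list covered. They made up 10.4% of what line 34 covered after the move and 10.7% of what line 37 covered, and 11.8% of the 904 Mb that both lists shared. Most of what each line covered after the move was therefore something else. Against its own 2i/LIF list, line 34 gained 343 Mb and lost 155 Mb, and newly decreased bins were 31.1% of the gain. Line 37 gained 269 Mb and lost 347 Mb, and newly decreased bins were 39.8% of the gain. Of the gain, 192 Mb in line 34 and 133 Mb in line 37 lay in domains that the 2i/LIF list of line 35 already held.

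Where no 2i/LIF list had a domain, line 34 covered 144 Mb of such bins after the move and line 37 covered 122 Mb, and 106.8 Mb was common to both, 74.2% of the first length and 87.6% of the second. Over their whole lists after the move, line 34 shared 88.4% of its length with line 37, and line 37 shared 90.3% with line 34. Both shares are above those over the bins in no 2i/LIF list. Just outside the rule lay 37.1 Mb gained in line 34 alone and 15.1 Mb gained in line 37 alone. On the other side of the rule, 90.4 Mb was shared by both lists after the move with exactly 1 2i/LIF list, which was that of line 35 for 70.7 Mb, that of line 34 for 12.8 Mb and that of line 37 for 6.92 Mb. With lines 34 and 37 as a block, that is with a bin absent only from each line's own 2i/LIF list, the count was 2330 regions and 178 Mb. That setting is the same as leaving the 2i/LIF list of line 35 out of the rule.

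Single regions were short compared with the domains that held them. Their median length was 44.2 kb, with a middle range from 16.9 to 87.1 kb and extremes of 1.3 and 652.6 kb. The 351 regions of up to 13 kb held 1.97% of the newly decreased length, and the 220 regions of over 130 kb held 42.8%. A newly decreased region lay in an unbroken stretch shared by both lists after the move with a median of 328.9 kb. There were 2528 such shared stretches, and 1280 of them (50.6%) held at least 1 newly decreased region, 280 held more than 1, and the most in a single stretch was 6. The median length was 261.3 kb for stretches with a newly decreased region and 153.4 kb for those without, and a longer stretch has more bins that can meet the rule.

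Nearly all newly decreased regions touched a domain that was already present in 2i/LIF. The rule itself ends a region wherever a 2i/LIF domain begins, and these domains together covered most of the span. Contact at an end is therefore partly built into the rule. Of the 1623 regions, 512 (31.5%) bridged, meaning that the bins next to both ends lay in a 2i/LIF domain. Another 995 (61.3%) extended a 2i/LIF domain at 1 end, and 116 (7.15%) were isolated with no 2i/LIF domain at either end. Whether these shares differ from those of other stretches in no 2i/LIF list was not tested. Bridging regions would be 49.1% if line 37 after the move did not enter the rule. By length, bridging regions held 49.0 Mb, extending regions 48.2 Mb and isolated regions 9.61 Mb. Bridging regions had a median of 71.5 kb, extending regions 26.0 kb and isolated regions 69.55 kb. The short regions were nearly all extensions: 334 of the 351 regions of up to 13 kb. Extensions ran in both directions about equally, with the 2i/LIF domain at the lower coordinate in 510 and at the upper coordinate in 485.

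**Figure D1:**
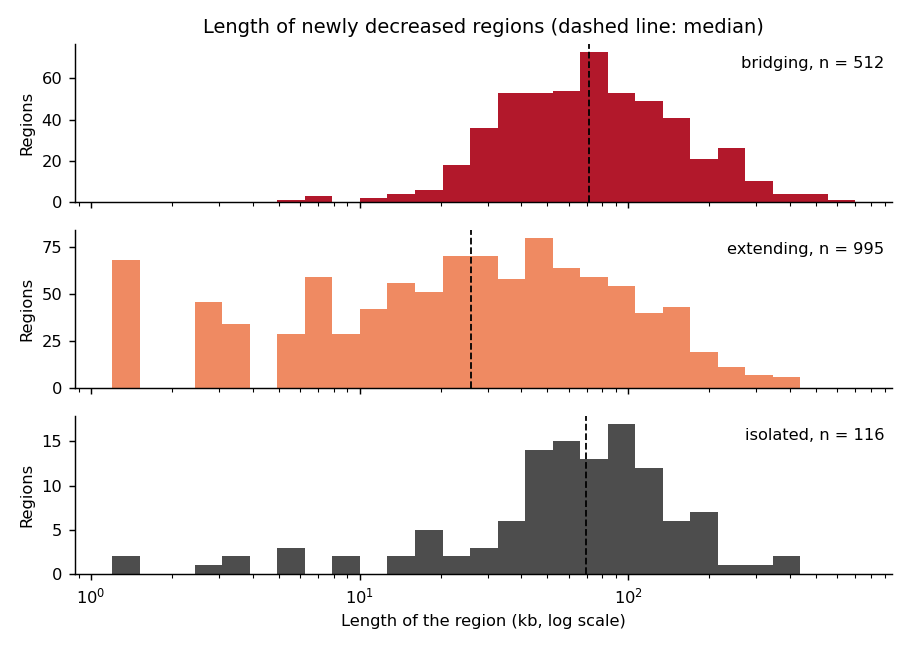
Length of newly decreased regions on a log axis in kb, by class: bridging (top), extending (middle) and isolated (bottom), with the median as a dashed line. Bridging and isolated regions have medians of 71.5 and 69.55 kb, whereas extending regions reach down to single bins of 1.3 kb and have a median of 26.0 kb.

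The domains met at the ends were mostly present in a single 2i/LIF list. Of the 2019 ends at a 2i/LIF domain, 1765 (87.4%) met a domain of exactly 1 list, 223 of 2 lists and 31 of all 3. Line 35 was met at 1173 ends, line 34 at 614 and line 37 at 517. Counted by region, 61.7% touched a domain of line 35, 34.3% one of line 34 and 30.1% one of line 37. In 250 of the 512 bridging regions a single 2i/LIF list had a domain at both ends: line 35 in 172 of them, line 34 in 57 and line 37 in 28, some regions being counted under more than 1 line. In the other 262 the ends lay in domains of different lines, so that no single 2i/LIF list was bridged there.

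At the 1227 ends that met no 2i/LIF domain, usually line 34 alone went on. The domain of line 34 continued alone beyond 854 of them (69.6%) and that of line 37 alone beyond 236 (19.2%), and both lists stopped at the same bin at 137 (11.2%). The next 2i/LIF domain beyond the free end of an extending region was 88.4 kb away at the median, with a range of 1.3 to 2575 kb. Isolated regions lay a median of 58.5 kb from the nearest 2i/LIF domain, with a range of 1.3 to 900.9 kb. Of the 116 isolated regions, 106 sat in a domain of line 37 that held no 2i/LIF bin, but only 55 sat in such a domain of line 34. In 52 this was so in both lines, and the other 64 lay in a domain that also held a 2i/LIF bin in at least 1 line.

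**Figure D2:**
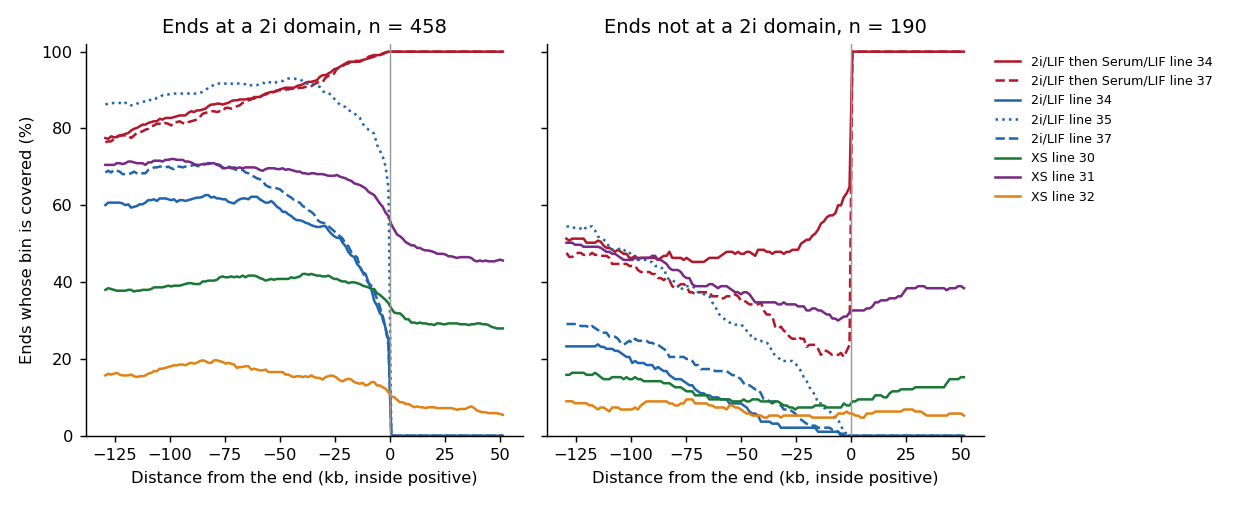
Share of region ends (in %) whose bin is covered by each list, against distance in kb from the end of newly decreased regions of at least 104 kb, with the inside of the region at positive distances; left, 458 ends at a 2i/LIF domain, right, 190 other ends. The values at 0% in 2i/LIF and 100% after the move inside the regions follow from the rule. In the first 13 kb outside the left-hand ends the list of 2i/LIF line 35 covers 75.6% and those of lines 34 and 37 cover 34.8% and 35.1%; XS coverage is lower inside than outside these ends in all 3 lines.

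Seen from the 2i/LIF side, both lists after the move filled some of the gaps between 2i/LIF domains and left most open. The union of the 2i/LIF lists had 3068 gaps between domains, and 512 of them (16.7%) were filled whole with newly decreased bins, 870 were filled in part and 1686 held none. A further 354 gaps were filled whole by line 34 alone and 55 by line 37 alone. Longer gaps were filled whole less often. Outside chromosomes 6 and 8, 7 of the 14 gaps of up to 13 kb were filled, 28.8% of the 775 gaps of over 13 to 65 kb were filled, 20.4% of the 842 gaps up to 130 kb, 12.6% of the 684 up to 260 kb, 6.69% of the 344 up to 650 kb and 1 of the 38 longer ones. A longer gap has more bins that must all be covered for it to count as filled. The share of single bins was also lower at greater distance. Outside the same chromosomes, 34.5% of the bins within 13 kb of a 2i/LIF domain were newly decreased, 28.6% of those at over 13 to 65 kb, 23.8% at over 65 to 130 kb and 11.9% farther away. Of all domains after the move, 28.3% in line 34 and 17.6% in line 37 overlapped more than 1 domain of the line's own 2i/LIF list.

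Newly decreased regions occurred on 17 of the 19 autosomes, and chromosomes 6 and 8 held none. Both of these chromosomes were nearly empty in the lists after the move: line 34 covered 4.37% of chromosome 6 and line 37 covered 0.0355%, and chromosome 8 was covered over 1.16% and 0.280%. Little could therefore meet the rule there, although 31.4 Mb of chromosome 6 and 29.98 Mb of chromosome 8 were free of 2i/LIF domains. On the other 17, the newly decreased share of the chromosome had a median of 4.95%. It was highest on chromosomes 18 (6.13%), 5 (6.07%) and 13 (5.95%) and lowest on chromosome 19 (2.45%). Chromosome 19 also differed between the lines, with 36.5% covered after the move in line 34 and 57.7% in line 37. Taken over the bins free of 2i/LIF domains, chromosomes 10 and 15 stood highest, at 35.8% and 35.4%, and chromosome 19 again lowest among the 17, at 13.9%. Chromosome 11, which the lists after the move covered most, at 65.9% in line 34 and 62.4% in line 37, had 3.85% newly decreased, and 16.7 Mb of it was free of 2i/LIF domains.

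**Figure D3:**
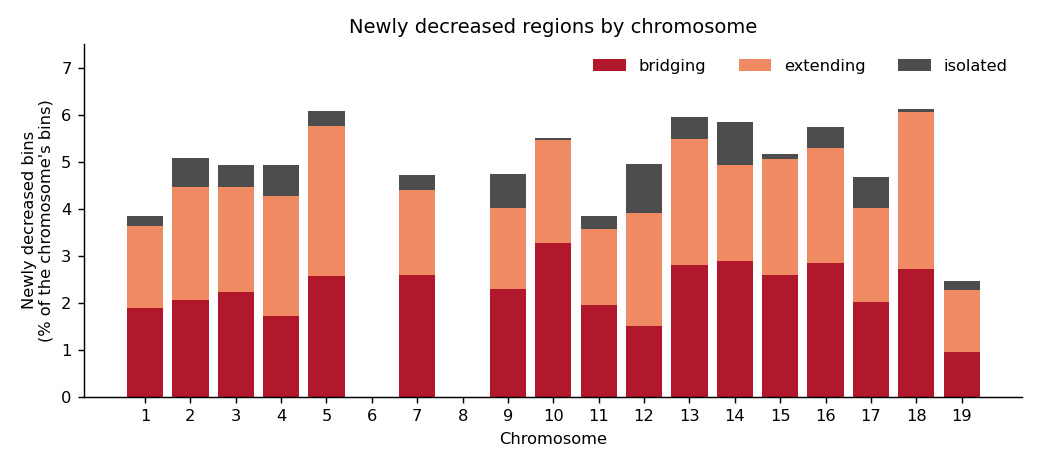
Newly decreased bins as a percentage of each autosome's bins, with the bars divided into bridging, extending and isolated regions. Chromosomes 6 and 8 have none and chromosome 19 has 2.45%, while the highest share is 6.13% on chromosome 18; bridging and extending regions make up most of every bar.

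Of the 10 longest regions 6 were bridging, as were 113 of the 226 regions of at least 130 kb. All positions are on build mm9, and no annotation of that build was at hand, so no gene or sequence is given for them. The longest lay on chromosome 10 from 118895401 to 119548000 (652.6 kb). Both of its ends met domains of 2i/LIF lines 34 and 35, and after the move it lay within a 1409.2 kb stretch shared by both lists. XS line 30 covered 58.2% of it, XS line 31 all of it and XS line 32 only 1.59%. The next ones were on chromosome 14 from 24271001 to 24810500 (539.5 kb) and on chromosome 9 from 28719601 to 29209700 (490.1 kb). XS line 31 covered both of these in full too. For XS line 30 the values were 64.3% and 31.3%, and for XS line 32 they were 0.241% and 12.7%.

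The other 3 bridging regions among the 10 longest were less alike. That on chromosome 3 from 152869601 to 153333700 (464.1 kb) met line 34 at both ends, and XS lines 30 and 31 held 48.7% and 17.1% of it. That on chromosome 7 from 103382501 to 103841400 (458.9 kb) met line 35 at its lower and line 37 at its upper end, and the same XS lines held 47.6% and 63.7%. XS line 32 held no bin of either. The region on chromosome 13 from 20241001 to 20675200 (434.2 kb) was in no XS list. The remaining 4 of the 10 extended a 2i/LIF domain at 1 end. That on chromosome 15 from 72417801 to 72840300 (422.5 kb) was 7.8 kb short of bridging, and XS lines 30, 31 and 32 held 93.2%, 93.8% and 19.4% of it. That on chromosome 5 from 132570101 to 132974400 (404.3 kb), also 7.8 kb short, was covered only by XS line 31, over 11.9%. On chromosome 1, the extension from 180878101 to 181304500 (426.4 kb) ended 100.1 kb before the next 2i/LIF domain, with 34.8% in the list of XS line 30 and 21.0% in that of XS line 31. On chromosome 7, the extension from 141995101 to 142404600 (409.5 kb) ended 74.1 kb before it, with 81.0% and 59.0%. Neither had a bin in the list of XS line 32. No S list touched any of the 10.

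The 3 longest isolated regions were unlike each other in serum. The first, on chromosome 14 from 12649001 to 13049400 (400.4 kb), lay 102.7 kb from the nearest 2i/LIF domain and was in no XS list. The second, on chromosome 12 from 19606601 to 19971900 (365.3 kb), lay 97.5 kb away, and XS lines 30, 31 and 32 held 39.9%, 18.5% and 0% of it. The third, on chromosome 2 from 113272901 to 113552400 (279.5 kb), lay 9.1 kb away, and the same lists held 59.5%, 100% and 37.7%.

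**Figure D4:**
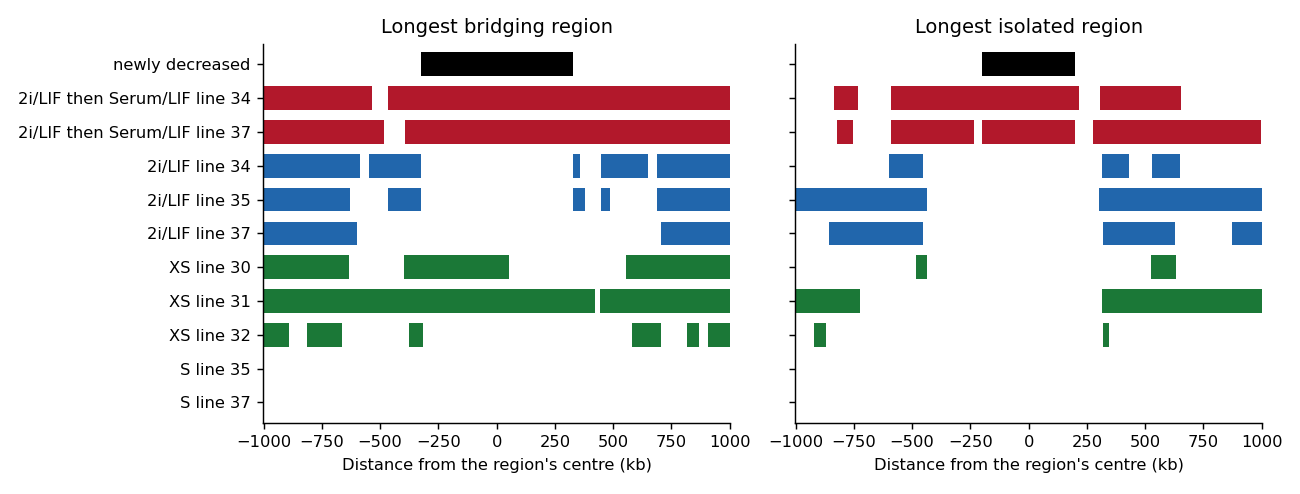
Domains of the 10 lists (rows) around the centre of the longest bridging region (left, 652.6 kb) and the longest isolated region (right, 400.4 kb), with distance from the centre in kb on the x axis. On the left both lists after the move run through a gap in all 3 2i/LIF lists, and XS line 31 does too; on the right no XS list reaches the region, and the domain of line 37 after the move has the region's exact ends while that of line 34 runs past both ends, mostly towards lower coordinates.

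The serum lists were not used in the rule. The XS lists come from lines that do not enter it, the S lists from lines 35 and 37, which do, and whether lists share a control is not given. XS lines 30, 31 and 32 covered 22.2%, 40.8% and 5.02% of the newly decreased bins. They covered 36.3%, 72.8% and 30.5% of the whole span, so each of them covered newly decreased bins less than the average bin. The S lists covered 0.00852% (line 35) and 0.0974% (line 37) of the newly decreased bins, against 0.0382% and 0.381% of the span and 0.132% and 1.23% of all bins in no 2i/LIF list. Line 35 had 7 such bins in 2 regions and line 37 had 80 bins in 8 regions. The XS lists averaged 22.7% ± 17.9 (SD, n = 3) and the S lists 0.0530% ± 0.0628 (SD, n = 2). Each of the XS values was above both S values. The difference of 22.6 percentage points gave p = 0.2 in a two-sided exact permutation test, and 5 lists allow none smaller. Any full separation of the XS from the S lists gives this p, whatever the size of the difference or the spread within a group. S lists are short everywhere, so the separation says little about newly decreased bins. Whether the samples of a group came from separate cultures is not stated.

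Among bins free of 2i/LIF domains, the 3 XS lists did not share 1 direction. XS line 30 covered 22.2% of the newly decreased bins and 9.95% of the other bins in no 2i/LIF list, and XS line 31 covered 40.8% and 33.9%. XS line 32 had the opposite order, with 5.02% and 17.0%. Over all bins in no 2i/LIF list, newly decreased ones included, the lists covered 12.6%, 35.4% and 14.4%. The mean difference was 2.37 ± 12.7 percentage points (SD, n = 3), higher in 2 of 3 lists, and a two-sided exact permutation test by sign flips gave p = 0.75, where 0.25 is the smallest possible. The difference was -2.55 percentage points without XS line 30, -16.0 without 2i/LIF line 35 in the rule and -2.28 without line 37 after the move. It was 9.55 without XS line 32, 0.115 without XS line 31 and 3.64 without 2i/LIF line 34. Of the other bins, 201.7 Mb lay in no list of the series.

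The difference in XS line 31 varied with distance from 2i/LIF domains. Within 13 kb of a 2i/LIF domain it covered 40.8% of the newly decreased bins and 40.5% of the other bins, while XS line 30 covered 22.7% and 12.3% and XS line 32 5.11% and 17.6%. Over 130 kb away, XS line 31 covered 44.2% of the newly decreased bins and 21.3% of the other bins, XS line 30 22.7% and 6.15%, and XS line 32 4.51% and 12.5%. XS lines 30, 31 and 32 covered 30.9%, 46.7% and 5.94% of the length of the gaps filled after the move, against 15.7%, 46.2% and 27.4% of the length of the gaps that neither list touched. Outside chromosomes 6 and 8, where no gap was filled, the untouched gaps stood at 17.1%, 47.7% and 29.8%, which puts XS line 31 lower in filled gaps. By chromosome, newly decreased bins were covered more than the other bins in no 2i/LIF list on 16 of 17 chromosomes by XS line 30, on 13 by XS line 31 and on 2 by XS line 32. Chromosome 17 had the highest coverage by XS line 30, at 52.8% of its newly decreased bins, and the highest by XS line 32, at 14.7%. On chromosome 13 XS line 32 covered none of the 6.97 Mb newly decreased and none of the other bins in no 2i/LIF list. Leaving that chromosome out gave a difference of 2.37 percentage points again.

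Newly decreased bins were less covered by every XS list than bins that both lists after the move shared with at least 1 2i/LIF list. Of the 797 Mb of these shared bins, XS lines 30, 31 and 32 covered 62.0%, 83.4% and 27.6%. For 70.7 Mb of them the only 2i/LIF list was that of line 35, so lines 34 and 37 gained these bins too. The mean difference, newly decreased minus shared bins, was -35.0 ± 10.9 percentage points (SD, n = 3), lower in 3 of 3 lists. The same sign-flip test, exact and two-sided, gave p = 0.25, and 3 lists allow none smaller. This comparison was added after the data were seen, and its 2 sets are divided by the 2i/LIF lists that the rule used. Bins in all 3 2i/LIF lists but in neither list after the move were covered at 43.1%, 80.4% and 19.7%. These values too are above those of newly decreased bins in each XS list. Higher coverage was therefore not limited to bins in both lists after the move. For bins in all 3 2i/LIF lists and in both lists after the move, coverage was higher still, at 71.5%, 90.1% and 33.1%. Coverage thus also differed by the lists after the move. Chromosomes nearly empty after the move, which hold no newly decreased bin, were not left out of the set in neither list. Among bins in both lists after the move, coverage in each XS list was higher with each further 2i/LIF list that held the bin. For XS line 30 it was 22.2% with none, 31.5% with 1, 39.7% with 2 and 71.5% with 3. For XS line 31 it was 40.8%, 58.4%, 70.2% and 90.1%, and for XS line 32 5.02%, 11.9%, 13.2% and 33.1%.

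**Figure D5:**
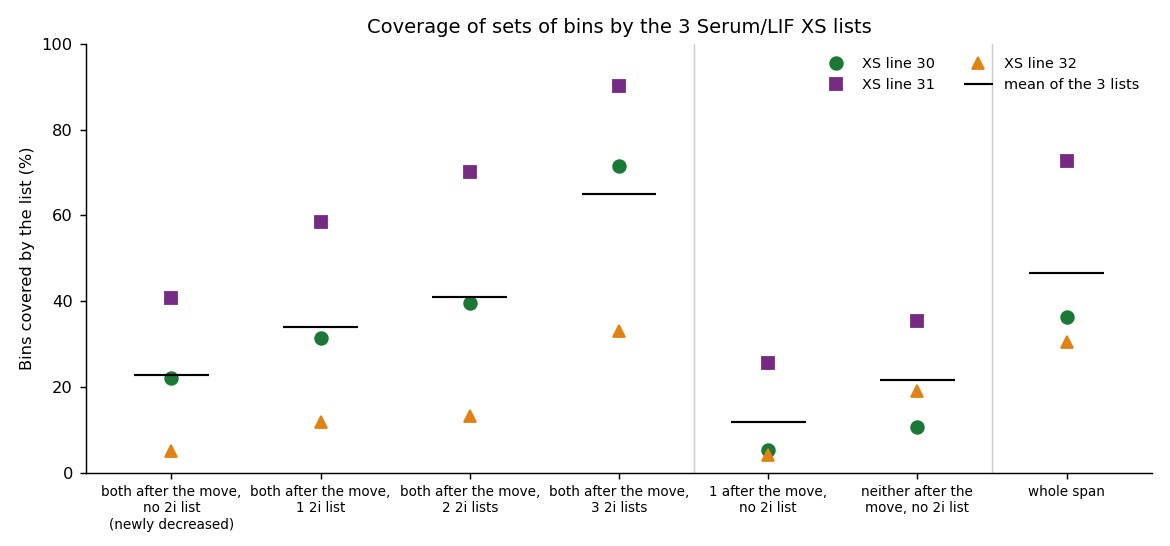
Percentage of the bins of each set covered by the lists of XS lines 30, 31 and 32 (symbols), with their mean as a bar; sets run from bins in both lists after the move by the number of 2i/LIF lists that also hold them, to bins in no 2i/LIF list, to the whole span. Newly decreased bins, at 22.2%, 40.8% and 5.02%, are the lowest of the first 4 sets in every XS list. They are above the set in 1 list after the move in every XS list, and above the set in neither list after the move only for XS lines 30 and 31.

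Coverage in serum was uneven between regions. The list of XS line 30 held 169 regions in full, 245 in part and 1209 not at all. For XS line 31 these numbers were 462, 266 and 895, and for XS line 32 they were 21, 116 and 1486. A total of 764 regions (47.1%, 38.96 Mb) were touched by no XS list, 407 only by XS line 31, 119 only by XS line 30, 196 by both of these and 93 by all 3 lines. Regions touched by all 3 had a median of 122.2 kb and those touched by none 35.1 kb, and a longer region has more bins that a list can touch. By bins, 53.0% of the newly decreased length was in no XS list, 29.2% in 1, 14.5% in 2 and 3.28% (3.51 Mb) in all 3.

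Bridging regions were covered most by each XS list and isolated ones least. By XS line 30, coverage was 30.9% of the bridging, 15.6% of the extending and 10.7% of the isolated length, XS line 31 46.7%, 37.2% and 28.7%, and XS line 32 5.94%, 4.38% and 3.57%. At ends of regions of at least 104 kb that met a 2i/LIF domain, coverage was lower farther inward. There XS lines 30, 31 and 32 held 30.9%, 51.3% and 8.67% of the first 13 kb inside the end, and 28.6%, 45.5% and 5.98% of the bins at 39 to 52 kb inside. They held 37.3%, 61.6% and 13.1% of the first 13 kb outside the same ends. At the other 190 ends of such regions, coverage by XS lines 30 and 31 was higher farther inward. There XS lines 30, 31 and 32 held 9.58%, 33.3% and 5.58% of the first 13 kb inside. At 39 to 52 kb inside they held 14.1%, 38.5% and 5.53%. Over all newly decreased bins, coverage was not lower in every list at greater distance from 2i/LIF domains. The lists held 22.7%, 40.8% and 5.11% of the bins within 13 kb of a 2i/LIF domain, and 22.7%, 44.2% and 4.51% of those over 130 kb away.

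Among the 226 regions of at least 130 kb, 64 were in no XS list, 7 of them on chromosome 13, and none was covered in full by all 3. On chromosome 13, XS lines 30, 31 and 32 also covered little of the other bins in no 2i/LIF list, at 0.624%, 15.9% and 0%. The 3 most covered of the 226 were bridging regions on chromosome 15 from 27675701 to 27950000, chromosome 17 from 86704801 to 86931000 and chromosome 18 from 69625401 to 69854200. XS line 31 covered each of them in full. Their coverage was 94.3%, 100% and 85.8% by XS line 30, and 70.1%, 60.3% and 74.4% by XS line 32. The 3 longest with no XS coverage were the chromosome 13 and chromosome 14 regions of 434.2 and 400.4 kb given above and a 396.5 kb extension on chromosome 13 from 11800101 to 12196600. On chromosome 18, which had the highest newly decreased share, the longest region ran from 12719201 to 13098800 (379.6 kb), and XS lines 30, 31 and 32 held 46.6%, 32.9% and 6.51% of it.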

How the data were processed

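H2A.X native ChIP-seq reads were aligned with Bowtie2 2.0.6 to mm9. This comes from the labels, per the submitters' processing notes, while neither the caller of the domains nor its control is stated in the sources used here. The lists of 10 samples were used as the authors deposited them, each with a chromosome, start, end and 2 scores of undefined meaning. The serum S sample of line 34, 3 inputs and 1 IgG sample were not analysed here. The second score deposited by the authors was used only to select higher-scoring domains, those at or above the median of their list. No sample depth is known. Coordinates are given 1-based.

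Domain starts and lengths are multiples of 1300 bp, so each list was turned into covered bins of that size. On each chromosome the span runs over every bin from the earliest to the latest domain of the series. Coverage was compared between lists by two-sided exact permutation tests, with sign flips within a list for sets of bins and relabelling for groups, where p is double the smaller tail. The alternatives leave out lists, short or low-scoring domains, short regions or chromosomes, join near domains or change the bins compared. Groups come from the sample titles, whose number is read here as that of the cell line. Equal numbers name the same cell line and so pair lists 34 and 37; over bins, the difference between these lines in 2i/LIF and after the move had a Pearson r of 0.0294. The code for the rule and the classes was run on simulated lists without noise, built by the same definitions, and 300 of 300 planted regions were recovered. This checks the code and not the precision of the deposited domains. The members, lists and named regions (the 10 longest, the 3 longest bridging and isolated, the longest on the 3 chromosomes with the highest share, and the 3 most and least covered by XS lists among those of at least 100 bins) were chosen with earlier results of these data known. Gene coordinates at hand are of GRCm38.p6 and were not used. Python 3.11.15, numpy 2.4.6, pandas 2.3.3 and matplotlib 3.10.9 were used.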

Additional observations from a re-analysis of the deposited data

How the results depend on the processing

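The number of regions was within 1.5 times of 1623 under 10 of 12 alternatives. Here and below, the replicate block of lines 34 and 37 and the rule without 2i/LIF line 35 are the same setting counted under both names. Leaving out chromosomes 6 and 8 removes no newly decreased bin. With the higher-scoring 50% of each list there were 948 regions over 128 Mb, 24.8% of them bridging. That setting removes 2i/LIF domains too. Regions of at least 130 kb numbered 226, over 46.5 Mb, 50% of them bridging, and those of at least 13 kb were bridging in 38.9%. With the replicate block of lines 34 and 37, the length was 178 Mb, 25.6% of regions were bridging and the XS difference from other bins in no 2i/LIF list was -16.0 percentage points. With 1 list of the rule left out, the number lay between 1698 and 2330, the length between 114 and 178 Mb, the bridging share between 25.6% and 49.1% and the share of length on chromosomes 6 and 8 between 0% and 0.341%. The upper ends of number and length came without 2i/LIF line 35, and those of the 2 shares without line 37 after the move. Leaving a list out can only add bins, so no such length could be below that of the full rule. The XS difference ran from -16.0 to 9.55 percentage points without 1 list. It was -1.40 with the higher-scoring domains and, in settings chosen after seeing the data, -0.590 within 13 kb of a 2i/LIF domain, 10.5 over 130 kb from one and -1.93 for filled against untouched gaps; the cause was not tested. Against bins in only 1 list after the move it was 10.96. The higher coverage by XS than by S lists kept its direction under all 17 alternatives run. The lower XS coverage of newly decreased bins than of those shared with at least 1 2i/LIF list did so under all 16. The S lists cover only 0.0382% and 0.381% of the span, so the first direction says little about newly decreased bins. In the second, the sets compared are divided by the 2i/LIF lists that the rule used. No exact test here could pass 0.05, and the depth behind each list is unknown.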

Other observations

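Newly decreased bins were spread over most of the genome and were densest in a few places. Of 419 windows of 5 Mb outside chromosomes 6 and 8, 38 held none, the median share of newly decreased bins was 4.26% and the middle range was 1.90% to 7.07%. Shares above 10% were found in 53 windows. The highest, 21.2%, was on chromosome 10 from 117997101 to 122996900 (mm9), where 24.9% of the bins were free of 2i/LIF domains and the lists after the move covered 87.6% in line 34 and 81.5% in line 37. The next were on chromosome 7 from 103064001 to 108063800 (19.7%) and on chromosome 10 from 38000301 to 43000100 (19.1%). By position, the 17 chromosomes were divided into lower-coordinate, middle and upper-coordinate parts, each an equal share of the span. Newly decreased bins made up 5.26%, 4.54% and 5.19% of the span of these parts, in that order. Over the bins free of 2i/LIF domains the shares were 22.4%, 23.5% and 31.6%, so the order of the parts depended on the bins compared.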
